A study of Acipenser schrenckii with 2 samples.

Results

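MicroRNAs of a chosen set of numbers, called fish-numbered below, made up 130 of the 663 miRNA names on a chip. The chip was hybridised with gonad RNA of Amur sturgeon (Acipenser schrenckii). The fish-numbered names were selected by a rule on the name, which uses no measured value but was set with earlier results of these data known. The rule takes miR-456, miR-458 to miR-461, miR-722 to miR-740 except miR-731, and every number of 1000 and above. Any letter, copy or arm of those numbers was included, which gave 89 miRNA numbers. The study held 2 arrays, 1 with gonad RNA of a female and 1 with gonad RNA of a male, each of 11 months. Both fish were labelled as normal and as early in sex differentiation. Each array holds a single fish, so no test between the sexes was possible, and every ± below is an SD over the 5 repeat spots of a name on a chip, which is technical.

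A miRNA is a short RNA that guides an Argonaute protein to target mRNAs, mainly through bases 2 to 8 of its 5′ end, the seed, and lowers their output. Besides old miRNAs shared by most vertebrates, every lineage has younger ones of its own, which tend to be expressed at low levels and in few tissues. Many of the numbers followed here were assigned when small RNAs of zebrafish and, later, of channel catfish, common carp and Atlantic halibut were sequenced. All of these are teleosts, and sturgeons split from the line of the teleosts before that group arose. A name on the chip is therefore the sequence of another fish, and signal on it does not show that the sturgeon carries those same bases. Prefixes give the source species: dre for zebrafish, ipu for channel catfish, ccr for common carp, ola for Japanese killifish (medaka), hhi for Atlantic halibut, fru for Fugu and tni for Tetraodon pufferfish. The rule also takes in numbers that are not confined to fishes. As examples, miR-1306 and miR-3618 are known from the DGCR8 transcript in human, and the target of hhi-miR-7641 closely resembles a stretch of vertebrate 5S ribosomal RNA. Which of the other numbers also occur outside fishes was not checked, so fish-numbered does not mean particular to fishes. Nor was it checked whether the other targets resemble RNAs that are not miRNAs.

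The sequences shown are those detected on both arrays, together with undetected variants of miR-458 and miR-737, as the chip file gives them, 5′ to 3′, with the seed in capitals. The first set is miR-458, whose sequences from 4 fishes differ inside the molecule and not in the seed.
dre-miR-458: aUAGCUCUuugaaugguacugc
ola-miR-458: aUAGCUCUuucaaugguacugc
fru-miR-458: aUAGCUCUuuaaaugguacugc
tni-miR-458: aUAGCUCUuuaaaugguucugc
Counted from 1 at the 5′ end, ola-miR-458 differs from dre-miR-458 by G11C, fru-miR-458 by G11A, and tni-miR-458 by G11A and A18U. The next set holds both arms of the miR-1388 and miR-1788 hairpins, an arm of miR-460 and miR-730, of which the longest name for each arm is shown.
ipu-miR-1388: aUCUCAGGuucgucagcccauga
dre-miR-1388-5p: aGGACUGUccaaccugagaaug
dre-miR-1788-3p: cAGGCAGCuaaagcaagucug
ipu-miR-1788: gGCUUGUUuuaaguugccugcga
dre-miR-460-5p: cCUGCAUUguacacacugugcg
dre-miR-730: uCCUCAUUgugcaugcugugugu
The targets of dre-miR-1388-3p and ola-miR-1388-3p lie within that of ipu-miR-1388, the target of ola-miR-1788 lies within that of dre-miR-1788-3p, and the target of dre-miR-1788-5p lies within that of ipu-miR-1788. The last set was detected through 1 name each.
hhi-miR-7641: cUGAACACgcccgaucucgu
dre-miR-2184: aACAGUAAgaguuuaugugcu
dre-miR-2188-5p: aAGGUCCAaccucacaugucc
ipu-miR-7550: aUCCGGCUcgaaggacca
dre-miR-7147: uGUACCAUgcugguagccagu
dre-miR-456: cAGGCUGGuuagaugguuguca
dre-miR-725: uUCAGUCAuuguuucuaguagu
dre-miR-2193: uAUGUGUGuaucaauugugugaaa
ipu-miR-7557: uGCUUGCGuucugucuguucccu
ipu-miR-7551: gGGGCCUGaguccuucugg
ipu-miR-737: gUUUUUUUagguuuugauuuuu

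Most of the fish-numbered miRNAs gave no detectable signal in either gonad. A name counted as detected where at least 3 of its 5 spots exceeded the 95th percentile of the empty spots of the same array. By that limit 49 of 130 names were detected in the female gonad and 28 in the male gonad. The excess in the female did not hold at a stricter limit: at the 99th percentile 10 and 14 names were detected, and with all 5 spots required at the 95th percentile 26 and 24. On both arrays 26 names (20%) were detected, 23 on the female array only, 2 on the male array only, and 79 on neither, so that 39.2% were detected at all. Of the other 485 numbered miRNAs on the chip, among them the conserved vertebrate families, 406 (83.7%) were detected and 369 (76.1%) were detected on both arrays. The 48 custom sequences lay between, with 33 detected (68.8%). No test was made of these shares, because names on a chip are not independent samples.

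**Figure D1:**
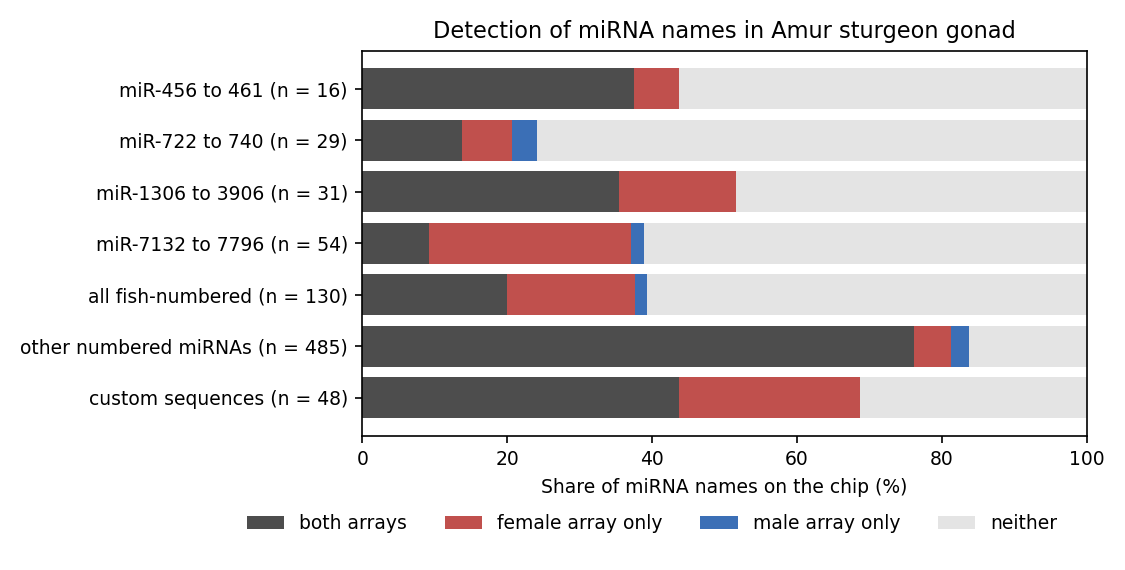
Share of miRNA names (%, horizontal axis) by detection, for 4 blocks of fish-numbered names and for the rest of the chip. Colours mark detection on both arrays (dark grey), the female array only (red), the male array only (blue) or neither (light grey). The dark part reaches 20% for all 130 fish-numbered names and 76.1% for the other 485 numbered names.

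The detected names were unevenly spread over the numbers. The block from miR-1306 to miR-3906 had 16 of 31 names detected, 11 of them on both arrays. The block from miR-456 to miR-461 had 7 of 16, 6 on both. The miR-722 to miR-740 block, zebrafish miRNAs for the most part, had 7 of 29 names detected and 4 on both. The block from miR-7132 to miR-7796 had 21 of 54 names detected, but only 5 on both arrays, and 15 of the 21 were seen on the female array only at this limit. The 26 names seen on both arrays belong to 16 of the 89 miRNA numbers.

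Other properties that the choice of names did not use went along with detection. The chip file lists the fishes in which each target occurs: 11 of the 16 fish-numbered targets listed for 2 or more species were detected (68.8%), against 40 of the 114 listed for a single species (35.1%). For the other numbered miRNAs these shares were 91.3% of 183 and 79.1% of 302. The median GC content was 50% for names detected on both arrays, 52.4% for those detected on 1 array and 45.5% for those on neither, and the median target length was 22 bases in all 3 classes. Many names share a target: 42 of the 130 fall into 18 groups in which targets match over at least 18 bases with at most 2 mismatches. Counted as distinct targets, 42 of 106 (39.6%) were detected.

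Facts of the arrays bear on these counts. Summed over all miRNA spots, the intensity came to 5533367 for the female gonad and 7034796 for the male. The median empty spot read 86.7 and 80.5, and the detection limit lay 16.8 above that median for the female array and 32.3 above it for the male array, so the limits are not equal. Of the gonad marker miR-202, 1 of 3 names was detected, with a difference of 1.90 toward the male and intensities above the empty spots that summed to 47.1 in the female gonad against 515 in the male. Of the male germ cell markers miR-34b, miR-34c and miR-449, 4 of 5 names were detected, with a median difference of 1.63 toward the male and sums of 1247 and 6447. Markers of other cells were also present: 17 of 19 names for striated muscle, 6 of 6 for red blood cells, 6 of 8 for kidney and gut, 8 of 11 for leukocytes, 2 of 4 for liver and 4 of 13 for nerve. Their summed intensities above the empty spots were 64349 in the female and 64301 in the male for muscle, 10216 and 10336 for red blood cells, 5344 and 3625 for kidney and gut, 29257 and 35423 for leukocytes, 46.2 and 478 for liver, and 174 and 248 for nerve. Over their detected names, the median male minus female difference was -1.11 for kidney and gut and 1.29 for liver. It was -0.25 for muscle, -0.36 for red blood cells, -0.07 for leukocytes and -0.01 for nerve. Most of the muscle sum came from 1 name, pol-miR-133-5p, the brightest of the chip, with 55853 (female) and 52446 (male). Its mean over the arrays was 15.61 on the log2 scale, against 7.39 to 7.61 for the other detected miR-133 5′ names. The muscle sums therefore say little about the other muscle names. The part of all these cell types in the results below was not tested. In whole tissue, fewer cells of a type and less RNA per cell cannot be told apart.

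The comparison that the design implies is male against female gonad. A difference was counted where a name was detected on the brighter array, differed at least 2-fold after normalization (1 as a log2 value), and kept its female and male spots apart. Of the 51 detected fish-numbered names, 2 passed: ipu-miR-737 was higher in the male gonad and dre-miR-458 was higher in the female gonad. Over all 490 detected names of the chip, 6.33% passed, 4.69% toward the male and 1.63% toward the female, and the 1.96% of fish-numbered names in either direction is a single name each. Before normalization the male values exceeded the female ones, with a median log2 difference of 0.45 over all names detected on both arrays, and every normalized difference is relative to that shift.

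**Figure D2:**
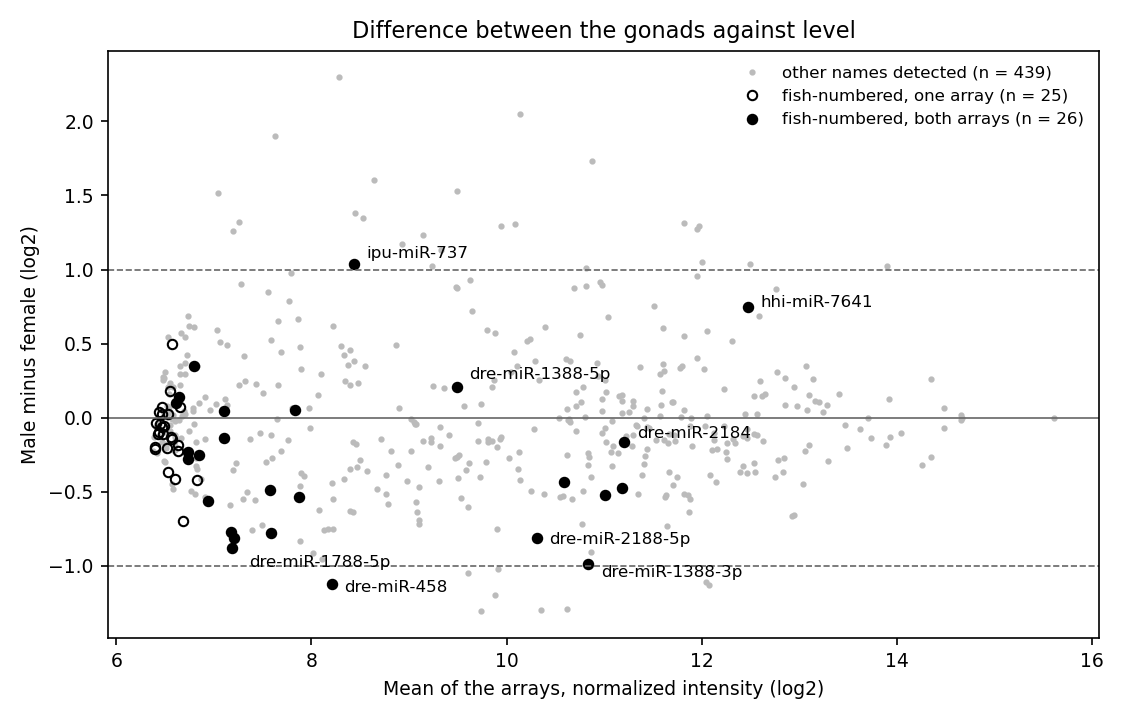
Male minus female difference (log2, vertical axis) against the mean normalized intensity of the arrays (log2, horizontal axis) for the 490 detected names; filled circles are the 26 fish-numbered names detected on both arrays, open circles the 25 detected on 1 array, grey points all others, and dashed lines mark 2-fold. ipu-miR-737 (1.04) and dre-miR-458 (-1.12) lie beyond the dashed lines, and most other filled circles lie below 0.

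miR-458 held the single fish-numbered name past the rule toward the female gonad. dre-miR-458 read 254 in the female gonad against 179 in the male, as the median of its spots above the empty spots and before normalization. After normalization it read 8.77 ± 0.14 and 7.65 ± 0.19 on the log2 scale, 2.17-fold higher in the female, and the spots of the arrays did not overlap. The authors' deposited table has 332 and 129 for it, a ratio of 2.57. The female reading was thus above the male reading on either scale, and it lay below 0 as male minus female under all 16 ways of processing that were tried. Its size did not hold throughout: the difference was -0.91 with 75th percentile scaling, -0.75 with cyclic loess, -0.35 without normalization and -0.14 when scaled to control probes with P in their names, all short of 2-fold.

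The other miR-458 sequences did not all follow dre-miR-458. ola-miR-458, which differs by G11C, read 123 in the female gonad and 119 in the male above the empty spots. After normalization it read 7.98 ± 0.19 and 7.20 ± 0.14, a log2 difference of -0.78 with no overlap of spots. That is 1.71-fold higher in the female and below the 2-fold limit. Its difference was -0.23 without normalization and -0.01 when scaled to control probes with P in their names. fru-miR-458 (G11A) read 7.17 ± 0.10 and 7.03 ± 0.25, a difference of -0.14 with overlapping spots, which turned to 0.15 with cyclic loess and 0.30 without normalization. In the authors' deposited table the female over male ratios were 2.64 for ola-miR-458 and 1.15 for fru-miR-458. tni-miR-458, which differs from fru-miR-458 by A18U, was detected on neither array. The sex difference of miR-458 therefore depended on which fish's sequence was read, from -1.12 to -0.14 among 3 targets that differ by a single base. Levels of different targets are not compared, since targets of different sequence bind with different strength.

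ipu-miR-737 was the single fish-numbered name past the rule toward the male gonad. It read 130 in the female gonad against 575 in the male above the empty spots. Normalized values were 7.92 ± 0.17 and 8.95 ± 0.27, 2.05-fold higher in the male, with all 5 male spots (8.64 to 9.27) above all 5 female spots (7.71 to 8.08). It read higher in the male under all 16 ways of processing, from 0.87 to 1.34 with the arrays set level and 1.67 without normalization. The difference lies close to the limit, and leaving out repeat spot 2, 3 or 5 took it below 2-fold. In the authors' deposited table the values are 160 and 388, a ratio of 2.43.

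The target of ipu-miR-737 is unusual in composition, with 16 U among 22 bases (72.7%). The other miR-737 names on the chip hold the complementary strand. In the lines below capitals mark the stretch of 16 bases in which ipu-miR-737 and hhi-miR-737 are perfectly complementary.
ipu-miR-737: guuuuUUUAGGUUUUGAUUUUu
hhi-miR-737: agAAAAUCAAAACCUAAA
With dre-miR-737 the complementary stretch is 14 bases. Neither dre-miR-737, with 1 of 5 spots above the limit on either array, nor hhi-miR-737, with 1 female and no male spot above it, was detected in the gonads. The sex difference therefore rests on 1 name and 1 strand, and no second target on the chip reads the same RNA.

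All 4 names of miR-1788 were detected on both arrays, and all 4 read higher in the female gonad. miR-1788 is a hairpin whose arms are read by unrelated targets, so its 5′ and 3′ names are separate readings. dre-miR-1788-5p read 83.7 in the female gonad against 51.0 in the male above the empty spots. Its normalized values were 7.63 ± 0.03 and 6.75 ± 0.04, a difference of -0.88 or 1.84-fold, and ipu-miR-1788 for the same arm differed by -0.81. For the 3′ arm, dre-miR-1788-3p read 51.5 and 43.4 above the empty spots and 7.22 ± 0.03 and 6.66 ± 0.08 after normalization, a difference of -0.56, and ola-miR-1788 differed by -0.77. In none of these 4 names did the spots of the arrays overlap, and as normalized none passed the 2-fold limit. In the authors' deposited table the 4 names were 2.71-fold to 4.17-fold higher in the female. With 50 added to those values, dre-miR-1788-5p alone among the 4 passed, at -1.04. All 4 differences lay below 0 under all 16 ways of processing. Their size depended on the scaling and on the background step. Without normalization the 4 differences were -0.25 to -0.45, and scaled to control probes with P in their names they were -0.03 to -0.23. With plain subtraction of the empty-spot median, which does not hold dim values up by an offset, the 4 differences were -1.32 to -1.79 and all passed.

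As normalized, the arms of miR-1388 went different ways. Names of the 3′ arm read 2078, 2059 and 2151 in the female gonad and 2192, 2034 and 2290.1 in the male gonad above the empty spots, for dre-miR-1388-3p, ipu-miR-1388 and ola-miR-1388-3p. Their normalized differences were -0.99, -0.52 and -0.47, all toward the female. dre-miR-1388-3p lay just inside the 2-fold limit because of a single male spot at 8.25, while its other 4 male spots read 10.71 to 11.04. Without spots over 0.5 from the median of their name its difference was -0.35. The 5′ name, dre-miR-1388-5p, read 498 and 1018 above the empty spots and 9.39 ± 0.07 and 9.59 ± 0.44 after normalization, a difference of 0.21 toward the male with overlapping spots. Here too the overlap came from a single male spot, at 8.81. Its other 4 male spots read 9.7 to 9.88, above all female spots (9.3 to 9.46). Without spots over 0.5 from the median the 5′ difference was 0.4. The 5′ difference stayed above 0 under all 16 ways of processing. Of the 3′ names, ipu-miR-1388 and ola-miR-1388-3p turned to 0.01 and 0.08 without normalization. They turned to 0.23 and 0.30 when scaled to control probes with P in their names. dre-miR-1388-3p stayed below 0 in all 16, at -0.35 and -0.13 in those settings. Both settings kept its far male spot, and leaving it out was not combined with them, so its constant sign may rest on that spot. The difference between the arms themselves was not tested.

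**Figure D3:**
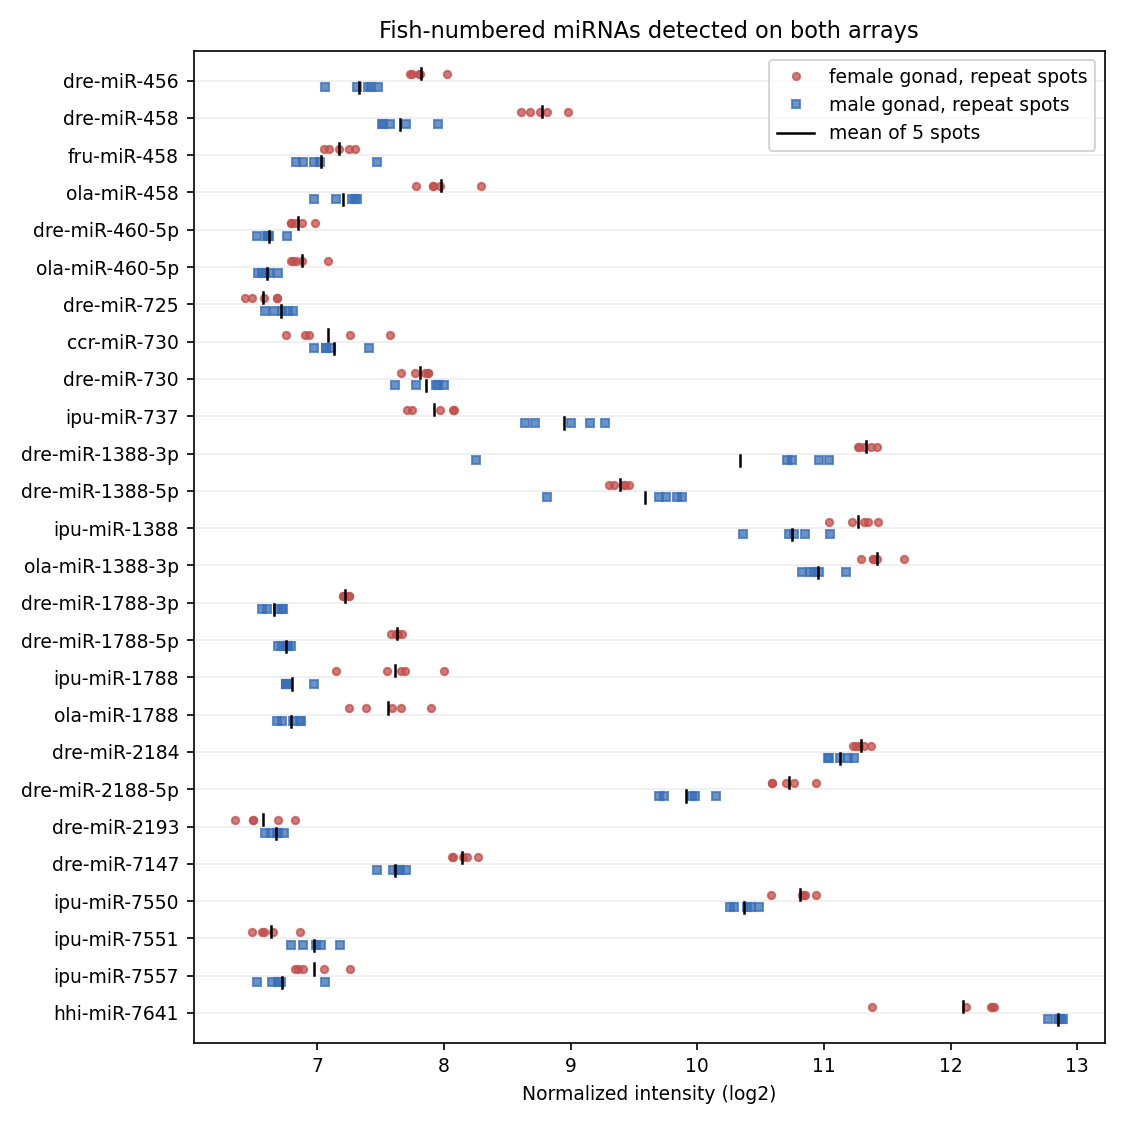
Normalized intensity (log2, horizontal axis) of each repeat spot of the 26 fish-numbered names detected on both arrays, red circles for the female and blue squares for the male gonad, with black ticks at the mean of 5 spots. The miR-1788 spots of the arrays do not overlap for any of the 4 names, and a single male spot of dre-miR-1388-3p at 8.25 stands apart from the others.

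hhi-miR-7641 read 4086 in the female gonad against 8529.6 in the male above the empty spots. The normalized values were 12.10 ± 0.41 and 12.85 ± 0.05, 1.68-fold higher in the male with no overlap of spots and short of 2-fold. Of its female spots 1 lay at 11.38 and the other 4 at 12.12 to 12.34. Without spots over 0.5 from the median the difference was 0.63. It was above 0 under all 16 ways of processing, and passed the 2-fold limit without normalization (1.26) and when scaled to the P control probes (1.48). The chip's own 6 controls for zebrafish 5S RNA, which resembles the target, had male over female ratios between 0.356 and 3.10 with a median of 1.24 before normalization, and the ratio of hhi-miR-7641 on that scale was 2.09. The part of 5S RNA in this signal was not tested.

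Further names detected on both arrays were dre-miR-2184, dre-miR-2188-5p, ipu-miR-7550, dre-miR-7147 and dre-miR-456. dre-miR-2188-5p read 1285 in the female gonad against 1180.5 in the male above the empty spots, and 10.72 ± 0.15 and 9.91 ± 0.18 after normalization. Its difference of -0.81, or 1.75-fold, came with no overlap of spots, lay from -0.86 to -0.73 in all settings that set the arrays level, and was 0.02 when scaled to the P control probes. The opposite arm, dre-miR-2188-3p, was not detected. dre-miR-2184 read 11.29 ± 0.06 and 11.13 ± 0.09, and its spots overlapped between the gonads. ipu-miR-7556, which shares the seed of dre-miR-2184, was not detected. ipu-miR-7550 differed by -0.44, dre-miR-7147 by -0.53 and dre-miR-456 by -0.49, each without overlap of spots and each short of 2-fold. These last differences also turned above 0 without normalization (0.24, 0.14 and 0.14). Whether an RNA other than a miRNA gave part of the ipu-miR-7550 signal was not tested.

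The remaining names detected on both arrays differed by at most 0.35 between the gonads after normalization. dre-miR-730 read 110 and 249 above the empty spots and 7.81 ± 0.09 and 7.86 ± 0.16 after normalization, a difference of 0.05, and ccr-miR-730 differed by 0.04. The arm miR-460-5p read 6.85 ± 0.08 and 6.62 ± 0.09 for dre-miR-460-5p and differed by -0.23, and by -0.28 for ola-miR-460-5p, both without overlap of spots and both above 0 (0.12 and 0.08) when scaled to the P control probes. Of the opposite arm only ipu-miR-460 was detected, on the female array alone and with 3 of 5 spots. dre-miR-725 (0.14), dre-miR-2193 (0.10), ipu-miR-7551 (0.35) and ipu-miR-7557 (-0.25) all had overlapping spots. As normalized, none of these names passed the 2-fold limit, and dre-miR-730 reached 0.96 when scaled to the P control probes.

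Where 2 names read nested targets, their sex differences were mostly close. Of 8 such pairs of detected names, 6 differed from each other by at most 0.25 on the log2 scale, with a median of 0.06 over the 8. The exceptions were both pairs with dre-miR-1388-3p (0.47 and 0.52), the name with the far male spot. Between the single-base variants of miR-458 the gaps were 0.34, 0.64 and 0.98. Such pairs share an array and an RNA sample, so their closeness speaks of the readout on these chips and not of other fish.

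As a list, the detected fish-numbered names read lower in the male gonad more often than higher after normalization, and their median turned to 0.12 when scaled to the P control probes. Of 51 names 36 had a difference below 0 (70.6%), with a median of -0.16, against 55.9% and a median of -0.06 over all 490 detected names. The 51 include 23 names that counted as detected through the female array alone, and 18 of these 23 lay below 0. The share over the 51 is therefore not independent of how names were admitted. For the 26 detected on both arrays the median was -0.36, with 18 below 0, against -0.06 over the 416 names of the chip detected on both. Near-identical targets counted once, 11 of 18 had a median below 0. Fish-numbered names had the lower median among dim and among bright names. Among names on both arrays with a mean under 8 on the log2 scale, the median was -0.26 for 16 fish-numbered names and 0.11 for 66 other numbered ones. From 8 upward it was -0.45 for 10 and -0.06 for 303. All 7 detected names of the miR-456 to miR-461 block lay below 0, although dre-miR-456 and fru-miR-458 turned above it without normalization. Scaled to the P control probes, those names, ipu-miR-460 and both miR-460-5p names lay above 0. Of the 7, ipu-miR-460 was detected on the female array only, and the miR-458 and miR-460-5p names read near-identical targets. In the miR-722 to miR-740 block 5 of the 7 lay above 0, of which ipu-miR-737 alone did so in all 16 settings. Of that block, ccr-miR-722 was detected on the male array only, and dre-miR-724 and dre-miR-726 on the female array only. These are counts over names of 1 pair of fish and carry no test.

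Counts at lower limits were as follows. With the fold limit at 1.5 and the other limits kept, 8 of 51 names (15.7%) were higher in the female gonad, against 7.76% of all detected names, and 2 (3.92%) were higher in the male, against 10.2%. The 8 were dre-miR-458, ola-miR-458, dre-miR-726, dre-miR-1388-3p, dre-miR-1788-5p, ipu-miR-1788, ola-miR-1788 and dre-miR-2188-5p, and the 2 were ipu-miR-737 and hhi-miR-7641. Of the 8, dre-miR-1388-3p counted through its far male spot. Without spots over 0.5 from the median of its name it differed by -0.35, short of 1.5-fold. By lack of overlap alone, 16 of 51 names (31.4%) lay toward the female, against 23.7% of all detected names, and 2 (3.92%) toward the male, against 19.4%. These shares are not like for like, since 23 of the 51 names were detected on the female array only, against 60 of all 490. Among those counted toward the female, dre-miR-726 (in both counts) and ola-miR-1306 (by lack of overlap) were detected on the female array only. Several of these names share a target, and the counts depend on the scaling: without normalization the median of the 26 names on both arrays was 0.11 against 0.45 over the chip, and scaled to the P control probes it was 0.33 against 0.66.

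**Figure D4:**
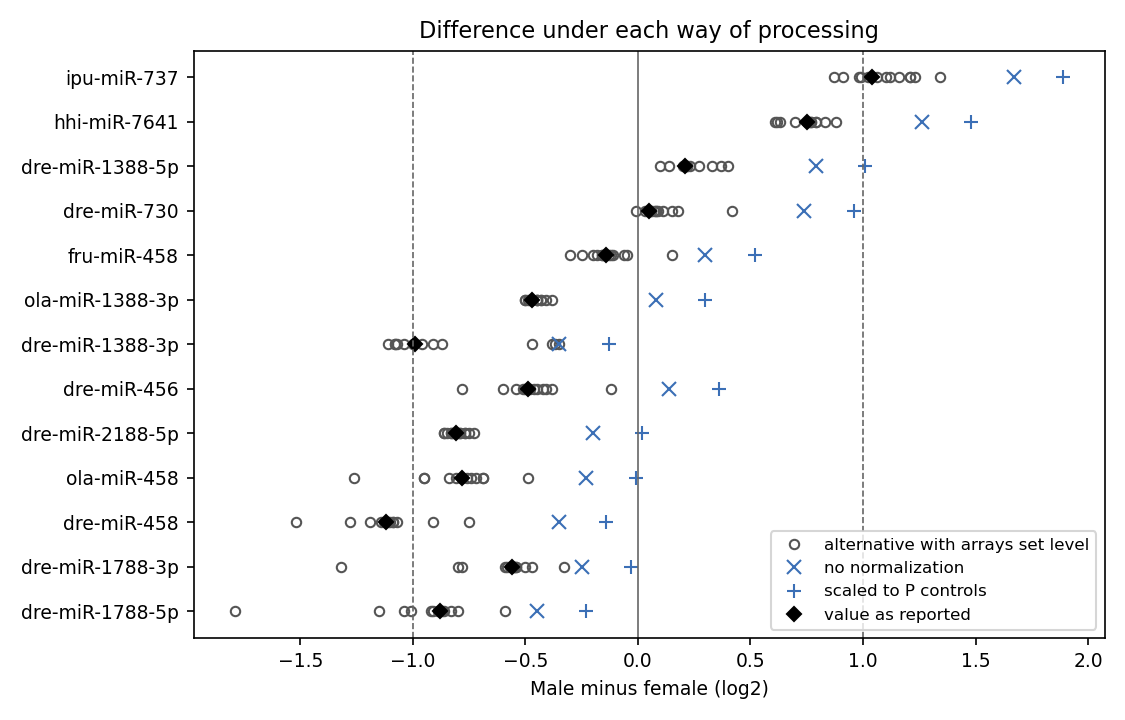
Male minus female difference (log2, horizontal axis) of 13 fish-numbered names, with a black diamond for the value as reported, open circles for alternatives that set the arrays level, a cross for no normalization and a plus for scaling to the P control probes; dashed lines mark 2-fold. ipu-miR-737 and hhi-miR-7641 stay above 0 throughout, and dre-miR-458, ola-miR-458 and the plotted miR-1788 names stay below 0 throughout. Scaled to the P control probes, ola-miR-458 (-0.01) and dre-miR-1788-3p (-0.03) lie close to 0. The values of dre-miR-456 and ola-miR-1388-3p turn above 0 when the arrays are not set level.

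The 25 names detected on 1 array mostly lay close to the detection limit. The 23 of the female array had a median of 19.8 above the empty spots, against a limit of 16.8, and 3 names had all 5 female spots above it. dre-miR-726 differed most between the gonads among the 25. All 5 of its spots exceeded the limit in the female and none did in the male gonad, with 40.2 and 12.9 above the empty spots. Against the lowest detected value of the male array it was at least 1.38-fold higher in the female, and it read lower in the male under all 16 ways of processing. Here and below the bound sets the brighter gonad against the higher of the name's own value and the lowest detected value in the other. Of the 23 names seen only on the female array, 14 gave no fold by this bound and 9 gave bounds of 1.04 to 1.38. Among the 9, ipu-miR-7568 (1.34), ipu-miR-7569 (1.18) and ipu-miR-7570 (1.11) each had a single female spot far above its others, at 8.47, 8.05 and 7.6. Without spots over 0.5 from the median of their name, their differences were -0.12, -0.11 and -0.04. For 11 of the 23 the male spots lay at least as far above their own empty spots as the female ones, so presence on the female array alone did not mean more signal there.

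The names seen on 1 array include members whose biology is known. miR-722, which in zebrafish lowers Rac2 and restrains neutrophil movement, was seen as ccr-miR-722 on the male array with 3 of 5 spots, at 16.2 in the female gonad and 33.6 in the male above the empty spots. The longer dre-miR-722 target was not detected. Both share their seed with miR-129, a miRNA known from neurons, whose names ccr-miR-129 and dre-miR-129-5p were detected and differed by 0.04 and 0.05. The DGCR8-linked dre-miR-1306 and ola-miR-1306 were detected on the female array alone, with 25.3 and 24.7 there against 22.7 and 27.5 in the male, and ipu-miR-3618 was seen on the female array with 3 of 5 spots. The only other name seen on the male array alone, ipu-miR-7563b, had 3 spots above the limit and a spot SD of 0.81 there.

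The 79 names detected on neither array include whole miRNA numbers. Among the older numbers these were miR-459 with all 5 of its names, miR-461, miR-723, miR-727, miR-728, miR-729, miR-732 to miR-736 and miR-738 and miR-740. In the next block they were miR-2185, miR-2186, miR-2187, miR-2191, miR-2192, miR-2194 to miR-2197 and miR-3906. In the highest block they were miR-7132, miR-7133, miR-7145, miR-7146, miR-7148, miR-7149, miR-7548, miR-7549, miR-7552 to miR-7556, miR-7560 to miR-7562, miR-7564, miR-7566, miR-7567, miR-7572, miR-7575, miR-7788, miR-7790 and miR-7792 to miR-7796. Their spots were not dark: the 79 names had median readings of 9.95 for the female gonad and 14.1 for the male above the empty spots, and 78 of 79 and 79 of 79 lay above the empty-spot median. For the 79 undetected names of the other numbered miRNAs these medians were 10.6 and 15.8. Signal of the undetected names was not detectable at these limits rather than shown to be absent, and 27 of the 79 had 2 of 5 female spots above the limit. The undetected other numbered names also lay above the empty-spot median, 78 of 79 and 79 of 79. A limit set on empty spots may therefore also count names as detected too readily, which was not tested.

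Other fish-associated families on the chip gave mixed detection as well. miR-462 and miR-731, a pair linked to interferon in fishes, had 3 of 3 and 1 of 2 names detected, and miR-430, a family of early fish embryos, had 3 of 8. Together 7 of these 13 names (53.8%) were detected, 6 of them on both arrays.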

How the data were processed

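The 2 single-colour arrays were grouped by the sex in the labels. Per the labels, small RNAs were size-filtered, poly(A) tailed and ligated to a tag for staining. The deposited scanner files hold a median Cy3 intensity for each of 3968 spots, 361 of them empty and not background corrected, with digit-grouping commas that were removed on reading. The authors' deposited table holds 1 processed linear intensity per name. The sources used here do not give its background step, centring or scale, so it served as an alternative (log2 after adding 50).

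Scanner values were corrected by normexp (offset 50), averaged on the log2 scale over 5 spots and quantile normalized over 663 names (R 4.3.3, limma 3.58.1), with counts and sequence matches in Python 3.11.15 (numpy 2.4.6, pandas 2.3.3). Quantile normalization hides a global difference between the arrays, and the offset shrinks differences of dim names. Precision is limited by having 1 array per sex. The call rule was run first on simulated data with known differences.

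Every member is counted, but not every name detected on 1 array or on neither is named or given with its values. Sequences are printed for 1 name per distinct target detected on both arrays and for variants of miR-458 and miR-737. Members and lists were chosen with earlier results of these data known. No genome was used, so no position is given. Alternatives covered normalization, background, spot summary, repeat spots, detection and size limits. Chosen after seeing the data were leaving out spots over 0.5 from their name's median, scaling to control probes with P in their names, and reducing near-identical targets.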

Additional observations from a re-analysis of the deposited data

How the results depend on the processing

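Detection depended on the limit: with the 99th percentile of empty spots 10 and 14 names were detected on the female and male array, in place of 49 and 28, and with all 5 spots required 26 were detected on the female array. Leaving out each repeat spot gave 38 to 48 and 26 to 27. Names past the 2-fold rule, 1 toward each sex as reported, numbered 2 toward the female with 75th percentile scaling and in the deposited table, 5 with offset 16, 8 with plain subtraction and 0 with cyclic loess. With 75th percentile scaling the 2 were dre-miR-1788-5p and dre-miR-726, and dre-miR-458 did not pass. Without normalization the names past the rule were 2 toward the male and 0 toward the female, scaled to the P control probes 3 and 0, and at a 1.5-fold limit 2 and 8. Without background correction 0 passed toward the male. Leaving out each repeat spot gave 0 to 1 toward the male and 1 to 2 toward the female, with medians of -0.23 to -0.17. The list median of -0.16 was -0.65 with 75th percentile scaling, -0.55 with plain subtraction, 0.12 with P control scaling (-0.19, -0.09 and 0.59 over all detected names), and -0.48 at the 99th percentile limit. Across 51 names, 12 differences stayed below 0 and 4 above 0 in all 16 settings, and 35 did not keep 1 sign. Of 765 alternative values, 632 stayed within the spot SD. Names with a large spot SD stay within it more easily, as dre-miR-1388-3p (male SD 1.18) did at -0.13 against -0.99. The 632 therefore do not measure how stable the differences are. Neither name past the rule changed sign. The cause of the changes between settings was not tested. No paired analysis was possible because each sex has 1 array.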
